A study of Homo sapiens with 20 samples.

Results

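ZMAT3, PHLDA3, AEN, EDA2R, SPATA18 and TRIAP1 are genes known as direct targets of the transcription factor p53, and their products act downstream of it. They were chosen by gene name for that role, with earlier results of these data known, and make up 6 of the 27697 genes that could be tested. The estimated read counts of all transcripts of a gene were summed, so each gene has a single value per sample.

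The samples were cultures of NGP, an established human neuroblastoma cell line, grown in 6-well format. In the nutlin group, 10 cultures received 8 µM nutlin-3 as a racemic mixture, and in the vehicle group 10 cultures received ethanol, the solvent, at 0 µM nutlin-3. All 20 samples come from the same line, so they show the response of a single tumor line, and the duration of the treatment is not given in the sources used here. Polyadenylated RNA was sequenced from stranded libraries.

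Nutlin-3 occupies the p53-binding pocket of MDM2, the ubiquitin ligase that keeps p53 low, and so lets p53 accumulate in cells that carry a functional copy. Accumulated p53 binds response elements near its target genes and raises their transcription. The 6 genes take that signal to different places. ZMAT3 acts on RNA, PHLDA3 and EDA2R act in signaling at the membrane, AEN cuts nucleic acids in the nucleus, and SPATA18 and TRIAP1 act at mitochondria.

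The p53 response element is a pair of decamers, each with a core of C, A or T, A or T again and G, with purines before the core and pyrimidines after it. A search for abutting decamers on both strands, within 2500 bases of the start of the most-counted transcript of each gene, was made in the hg38 genome for 5 members, and the closest matches of ZMAT3, EDA2R, SPATA18 and AEN follow. They are shown because they are the letters closest to the binding site of the factor that nutlin-3 stabilizes. Both cores had to be intact in every match counted here, so mismatches were allowed only at the bases outside the cores. Capitals mark the match, and 20 bases of flank on each side are in lower case, all written 5′ to 3′ along the strand of the gene.
ZMAT3: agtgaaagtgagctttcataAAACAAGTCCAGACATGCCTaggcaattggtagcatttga
EDA2R: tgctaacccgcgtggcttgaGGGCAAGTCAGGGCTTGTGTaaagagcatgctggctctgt
SPATA18: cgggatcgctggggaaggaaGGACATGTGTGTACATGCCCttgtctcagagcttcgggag
AEN: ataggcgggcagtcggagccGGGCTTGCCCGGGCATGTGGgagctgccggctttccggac

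The match of ZMAT3 at chr3:179070188-179070207, on the minus strand, lay in intron 1 and had 0 mismatches to the 20-base consensus. That of EDA2R at chrX:66638563-66638582, on the minus strand, and that of SPATA18 at chr4:52051957-52051976, on the plus strand, also lay in intron 1 and had 2 mismatches each. The AEN match at chr15:88621306-88621325, on the plus strand, had 2 mismatches and was centred at position -25 relative to the transcript start, outside the transcript. Among windows of the same size around 27696 genes, 0.083% held a match without mismatches and 2.29% a match with at most 2. A match with at most 2 mismatches was present for 4 of the 5 members searched and for 10 of 30 other known p53 targets (33.3%). In the RefSeq promoter windows of GRCh38.p14, which run from 250 bases before to 50 bases after a start, a single consensus decamer occurred in 6.63% of 35116 promoters and, among the 5 members with an entry, in that of AEN, at position -34. The AEN decamer is the first decamer of the AEN match above, so it is not a separate site. These are matches of letters, and binding was not measured.

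The libraries held between 14455477 and 19532971 estimated counts in the vehicle group and between 15078052 and 17442896 in the nutlin group. A gene was significantly differentially expressed (SDE) when its adjusted p-value was below the 5% false discovery rate (FDR), using the quasi-likelihood test of edgeR with Benjamini-Hochberg adjustment over all genes tested. By that rule 16275 genes were SDE (58.8%), and 32.3% of all genes tested were SDE and higher in the nutlin group. A count of SDE members has to be read against these percentages. Log2 fold changes (LFCs) below are nutlin minus vehicle, with their standard errors (SE), and their median over all genes tested was 0.19. All 10 markers of adrenergic neuroblastoma were detected, with a summed level of 4560 to 5260 CPM (counts scaled to library size) in vehicle and 5230 to 6660 CPM in nutlin samples. Of these 4 rose and 5 fell. Of 10 markers of immune, stromal, endothelial and epithelial cells, 9 were tested and 4 were SDE, all higher with nutlin-3. Their summed level was 11.6 to 16.9 CPM in vehicle and 40.5 to 52.3 CPM in nutlin samples, mostly from the collagen gene COL1A1, which had a mean of 8.91 CPM in vehicle and 35.2 CPM in nutlin samples. The other 3 that rose were the macrophage marker CD68 (0.807 to 3.95 CPM), the endothelial marker PECAM1 (0.4202 to 1.27 CPM) and the epithelial marker EPCAM (0.449 to 1.49 CPM). The leukocyte marker PTPRC averaged 0.0847 and 0.155 CPM, the epithelial keratin KRT5 averaged 0.006 and 0.0132 CPM, and the T-cell marker CD3E did not pass the filter. The part of these markers in the results below was not tested. In bulk RNA, a change in the number of cells that express a gene cannot be told apart from a change in RNA per cell.

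All 6 genes were SDE and higher in the nutlin group. In each of them the lowest nutlin sample lay above the highest vehicle sample, a separation seen for 12.2% of all genes tested. The responses were unequal, from 2.11-fold for AEN to 26.8-fold for SPATA18. Only for PHLDA3 and EDA2R did the 95% confidence intervals of the fold change overlap.

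**Figure D1:**
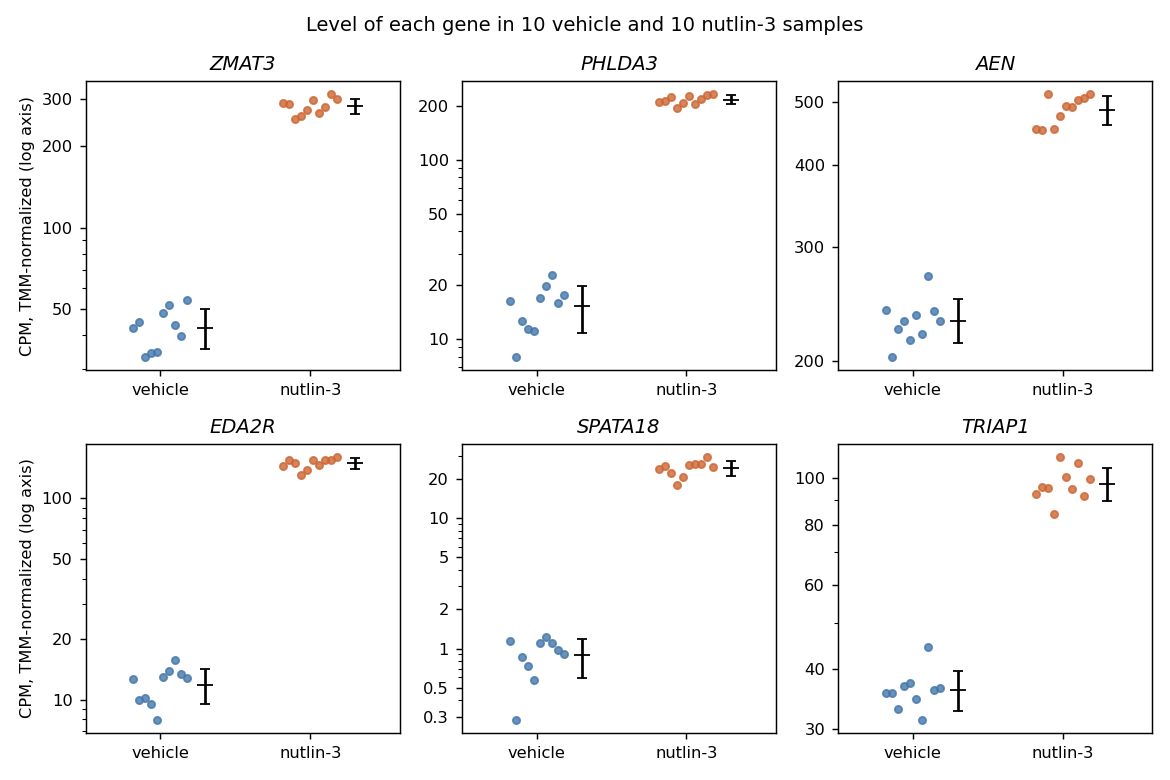
CPM of the 6 genes after scaling with the trimmed mean of M-values (TMM), on a log axis, in the 10 vehicle samples and the 10 nutlin-3 samples, with the mean and SD of each group at its right. The groups do not overlap for any of the 6 genes, and SPATA18 spans 0.284 to 29.5 CPM while AEN spans 203 to 515 CPM.

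ZMAT3 (ENSG00000172667.11, chr3:178960121-179072215, minus strand) encodes a zinc finger protein that binds AU-rich elements in RNA and regulates RNA stability and splicing. Its level was lowest at 33.2, median 43.1 and highest at 53.8 CPM in the vehicle samples, and 252, 283 and 312 CPM in the nutlin samples. The nutlin samples lay far above all vehicle samples, with none in between. The LFC was 2.72 ± 0.07 (SE), a 6.57-fold increase with a 95% interval from 5.94 to 7.28 (edgeR quasi-likelihood test, adjusted p = 8.48e-24, n = 10 and 10).

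PHLDA3 (ENSG00000174307.7, chr1:201464278-201469237, minus strand) encodes a small protein that is little more than a pleckstrin homology domain and competes with the survival kinase AKT for membrane lipids. Vehicle samples ranged from 7.95 to 22.9 CPM with a median of 16.04, and nutlin samples from 195 to 233 CPM with a median of 216. The vehicle samples were spread widely and the nutlin samples closely. The LFC was 3.82 ± 0.11 (SE), a 14.2-fold increase with a 95% interval from 12.2 to 16.4 (edgeR quasi-likelihood test, adjusted p = 2.71e-23, n = 10 and 10).

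EDA2R (ENSG00000131080.15, chrX:66595637-66639298, minus strand) encodes a receptor of the tumor necrosis factor family for an isoform of ectodysplasin. It ranged from 7.96 to 15.8 CPM around a median of 12.8 in the vehicle group, and from 131 to 161 CPM around 153 in the nutlin group. Again no nutlin sample came near the vehicle range. The LFC was 3.65 ± 0.08 (SE), a 12.5-fold increase with a 95% interval from 11.2 to 13.9 (edgeR quasi-likelihood test, adjusted p = 3.48e-26, n = 10 and 10).

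AEN (ENSG00000181026.15, chr15:88621337-88632281, plus strand) encodes the apoptosis-enhancing nuclease, an exonuclease that digests DNA and RNA. It was already abundant without nutlin-3, with 203, 230 and 271 CPM as the lowest, median and highest vehicle samples. The nutlin samples had 453, 492 and 515 CPM in the same order. With the smallest response of the 6, AEN still separated the groups completely. The LFC was 1.08 ± 0.04 (SE), a 2.11-fold increase with a 95% interval from 1.99 to 2.24 (edgeR quasi-likelihood test, adjusted p = 1.06e-19, n = 10 and 10).

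SPATA18 (ENSG00000163071.11, chr4:52051304-52097299, plus strand) encodes a protein, also known as Mieap, that takes part in the removal of damaged mitochondria or of oxidized proteins within them. It was close to silent in vehicle samples, with 4 to 21 estimated counts per library (median 14), and had 264 to 450 counts in nutlin samples (median 383.5). In CPM the vehicle samples ranged from 0.284 to 1.23 with a median of 0.939, and the nutlin samples from 18.1 to 29.5 with a median of 24.8. At so few counts, counting error alone gives a coefficient of variation (CV) of 27.0% in the vehicle group, so the vehicle level is the least certain of the 6. The LFC was 4.74 ± 0.12 (SE), a 26.8-fold increase with a 95% interval from 22.5 to 31.8 (edgeR quasi-likelihood test, adjusted p = 5.03e-24, n = 10 and 10).

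TRIAP1 (ENSG00000170855.4, chr12:120443964-120446384, minus strand) encodes a small protein of the mitochondrial intermembrane space that, with PRELI-domain partners, carries phosphatidic acid to the inner membrane for cardiolipin synthesis, and it is described as an inhibitor of apoptosis. The lowest, median and highest levels were 31.4, 36.0 and 44.5 CPM in vehicle samples, and 84.4, 95.6 and 111 CPM in nutlin samples. The highest vehicle sample stood apart from the other 9 but stayed below the lowest nutlin sample. The LFC was 1.43 ± 0.05 (SE), a 2.69-fold increase with a 95% interval from 2.50 to 2.89 (edgeR quasi-likelihood test, adjusted p = 1.94e-20, n = 10 and 10).

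To compare levels between genes, TPM values were used, which scale transcripts by both length and library size. In vehicle samples AEN had the highest level, at 83.9 ± 6.73 TPM (SD, n = 10), followed by TRIAP1 at 36.8 ± 2.58, PHLDA3 at 11.3 ± 3.72, ZMAT3 at 5.77 ± 1.38, EDA2R at 4.03 ± 0.979 and SPATA18 at 0.458 ± 0.224 TPM. The TPM ranges of PHLDA3 and ZMAT3 overlapped, as did those of ZMAT3 and EDA2R, although within each of the 10 vehicle samples the order was the same. In nutlin samples the order of the TPM levels was AEN at 188 ± 10.5, PHLDA3 at 158 ± 13.2, TRIAP1 at 97.6 ± 5.61, EDA2R at 51.3 ± 4.48, ZMAT3 at 48.4 ± 4.44 and SPATA18 at 10.5 ± 1.56 TPM (SD, n = 10). PHLDA3 thus moved above TRIAP1 in all 10 nutlin samples, and EDA2R was above ZMAT3 in 7 of 10, with overlapping ranges. SPATA18 had the largest fold change and the lowest level of the 6 in both groups.

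Of 30 other known p53 targets, chosen with earlier results known, 28 were SDE and higher with nutlin-3, against 32.3% of all genes tested. Among these 30, the 6 genes lay within the range of responses, from the lower end to the upper part. The median LFC of the 30 was 2.80. The highest were GDF15, a secreted stress cytokine, with an LFC of 8.61 ± 0.14 (SE), the death receptor gene FAS with 5.80 ± 0.17, and CDKN1A, the inhibitor of cyclin-dependent kinases known as p21, with 5.68 ± 0.14. Above SPATA18 stood 4 of the 30, above PHLDA3 10, above EDA2R 11, above ZMAT3 16, above TRIAP1 24 and above AEN 26. At the lower end, the cyclin gene CCNG1 rose with an LFC of 0.98 ± 0.04. NINJ1, which encodes a protein that ruptures the membrane of dying cells, had an LFC of 0.21 ± 0.13 and was not SDE (edgeR quasi-likelihood test, adjusted p = 0.156), and APAF1, the scaffold of the apoptosome, fell with an LFC of -0.50 ± 0.07. Among all 27697 genes, SPATA18 ranked 138th by LFC, PHLDA3 326th, EDA2R 375th, ZMAT3 867th, TRIAP1 3458th and AEN 5168th.

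**Figure D2:**
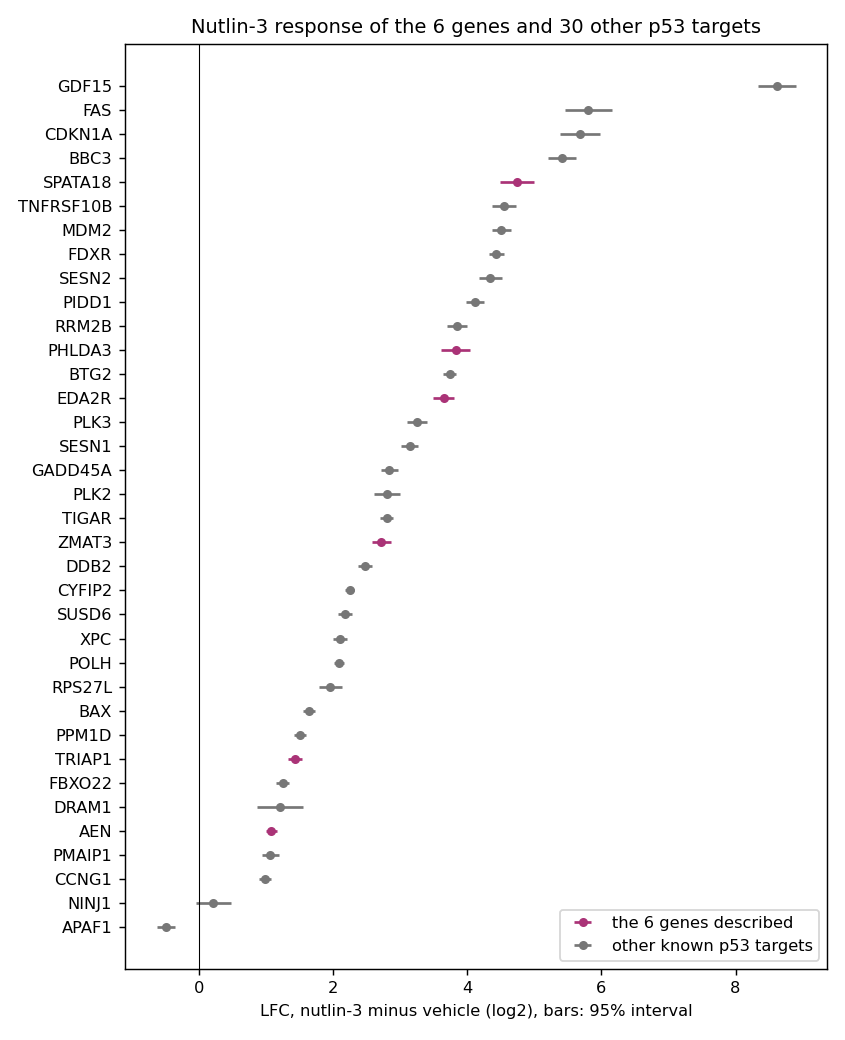
LFC (nutlin-3 minus vehicle, log2) of the 6 genes and of 30 other known p53 targets, each with its 95% confidence interval. The 6 genes spread from 1.08 (AEN) to 4.74 (SPATA18), between CCNG1 at 0.98 and BBC3 at 5.41.

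The vehicle samples did not form a uniform group for these genes. In replicates 4 to 7 PHLDA3 had 7.95 to 12.7 CPM, against 15.8 to 22.9 CPM in the other 6 vehicle samples. EDA2R had 7.96 to 10.2 CPM in those 4 samples and 12.7 to 15.8 CPM in the other 6, and SPATA18 had 0.284 to 0.864 CPM against 0.902 to 1.23 CPM. For these 3 genes the 4 samples, which were set apart here after their values were seen, had the lowest CPM of the group, without overlap. ZMAT3 (33.2 to 44.7 against 39.6 to 53.8 CPM), AEN (203 to 230 against 220.4 to 271 CPM) and TRIAP1 (32.9 to 37.5 against 31.4 to 44.5 CPM) overlapped between them. In TPM, PHLDA3 overlapped as well, with 10.2 in replicate 5 and 8.41 in replicate 11. So did SPATA18, with 0.542 in replicate 4 and 0.304 in replicate 3. In estimated counts SPATA18 had 13 in replicate 5 and 12 in replicate 11. The 4 samples were lowest in TPM for EDA2R (at most 3.47 against at least 4.05) and AEN (at most 78.7 against at least 84.3). The same 4 samples lay on one side of the second principal component of 11391 genes in the vehicle group, which held 14.4% of the variance. The first component of that group (32.3%) did not set them apart, with replicate 4 at one end and replicates 10 and 11 at the other. In the nutlin group, replicates 4 and 6 stood apart on the first component (27.2%), and they had the lowest levels of EDA2R, 131 and 139 CPM, and of SPATA18, 18.1 and 20.8 CPM. The labels name no batch for these samples, and their part in the result was not tested. Without these 6 libraries, an alternative added after seeing the data, all 6 genes were still SDE, with LFCs of 2.63 ± 0.06 (SE) for ZMAT3, 3.62 ± 0.06 for PHLDA3, 1.06 ± 0.05 for AEN, 3.52 ± 0.05 for EDA2R, 4.57 ± 0.10 for SPATA18 and 1.44 ± 0.06 for TRIAP1.

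**Figure D3:**
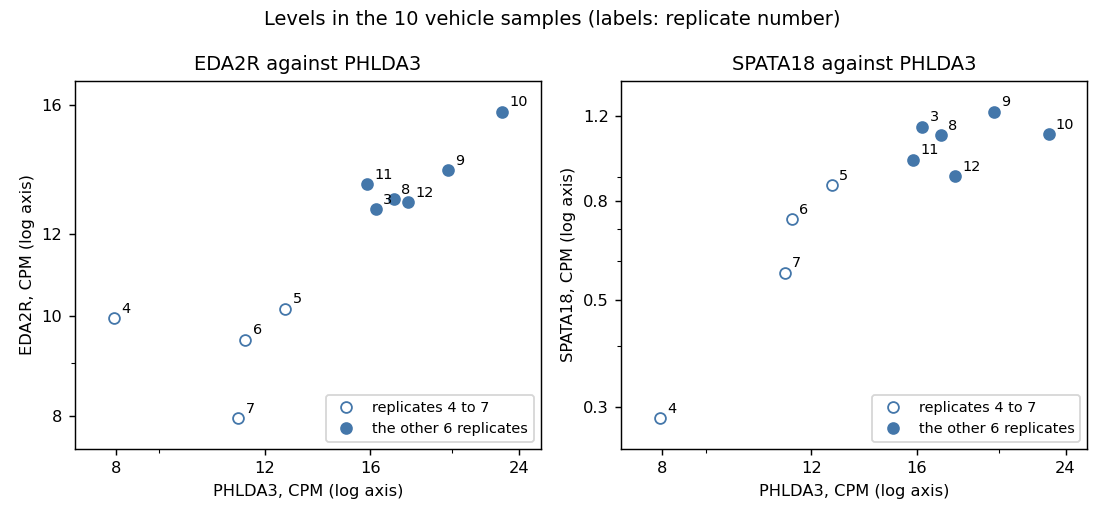
CPM of EDA2R (left) and SPATA18 (right) against CPM of PHLDA3 in the 10 vehicle samples, with log axes and the replicate number beside each point. Replicates 4 to 7 (open circles) lie below 12.7 CPM of PHLDA3 and the other 6 (filled circles) at or above 15.8 CPM.

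Correlations were computed for all 15 pairs of genes in each group. With all 10 samples per group, 28 of the 30 pairs had a positive Pearson's r, and 4 passed adjustment by r. Of these 4, 2 also passed by Spearman's rho, both in the vehicle group. They were PHLDA3 with EDA2R (r = 0.860, rho = 0.879) and PHLDA3 with SPATA18 (r = 0.912, rho = 0.855), both in CPM. In TPM, r was 0.858 for PHLDA3 with EDA2R but only 0.407 for PHLDA3 with SPATA18. SPATA18 had 4 to 21 counts in these libraries. The vehicle samples that stood apart were low in these genes and are part of these values. Because of the clusters described above, correlations were computed again within the 6 vehicle samples and the 8 nutlin samples that remained. None of the 30 passed adjustment there, and 21 had a positive r. With 6 and 8 samples such tests have little power, so this does not show that the genes vary independently. By Pearson's r, PHLDA3 was closest to EDA2R among the vehicle samples, with Pearson's r = 0.890 and Spearman's rho = 0.600 (exact permutation test, two-sided, p = 0.0306 and 0.242, Benjamini-Hochberg adjusted over the 30 pairs p = 0.392 and 0.892, n = 6). Among the 8 nutlin samples the same pair had r = 0.739 and rho = 0.667 (exact permutation test, two-sided, p = 0.0398 and 0.0831, adjusted p = 0.392 and 0.721, n = 8), and PHLDA3 and AEN had r = 0.709 and rho = 0.786 (exact permutation test, two-sided, p = 0.0523 and 0.0279, adjusted p = 0.392 and 0.419, n = 8). AEN and TRIAP1 had r = 0.956 and rho = 0.600 in the 6 vehicle samples (exact permutation test, two-sided, p = 0.0222 and 0.242, adjusted p = 0.392 and 0.892, n = 6), where replicate 10 was the highest for both genes.

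The relative spread between samples was larger without nutlin-3 than with it for all 6 genes. The CV of PHLDA3 was 29.4% in vehicle and 5.84% in nutlin samples, that of EDA2R 20.1% and 6.15%, that of SPATA18 32.8% and 13.3%, and that of ZMAT3 17.0% and 6.70%. For AEN (7.82% and 5.17%) and TRIAP1 (9.58% and 7.86%) it was closer. Counting error alone gives SPATA18 a CV of 27.0% in vehicle and 5.14% in nutlin samples, so much of its contrast goes with its low counts. As background, the median CV over 15168 genes of at least 1 CPM was 10.2% in vehicle and 9.04% in nutlin samples, and 62.9% of them had the larger CV in vehicle. A vehicle to nutlin ratio as high as the 5.03 of PHLDA3 occurred in 0.455% of these genes, and one as high as the 3.28 of EDA2R in 1.79%. The low levels of PHLDA3, EDA2R and SPATA18 in vehicle replicates 4 to 7 are part of this spread.

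The counts of a gene are sums over its annotated transcripts, and 21 of the 29 transcripts of the 6 genes in the files passed the filter on low counts. Of these 20 were SDE, all higher with nutlin-3, where 48.5% of 51146 transcripts tested were SDE and 25.4% were SDE and higher. The exception was the AEN transcript ENST00000557787, with an LFC of 0.81 ± 0.38 (edgeR quasi-likelihood test, adjusted p = 0.0832). A further test asked whether a transcript changed relative to the others of its gene. It called 6 of the 21, where 8.49% of 45702 transcripts were called.

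The largest shift in usage was in EDA2R. ENST00000451436, whose annotated start at chrX:66639298 is farther upstream than the 66639078 of the main transcript ENST00000374719, held 21.4% ± 8.97 of the estimated counts of the gene in vehicle samples and 2.52% ± 0.966 in nutlin samples (SD, n = 10). Its own counts rose little, from 13.5 to 84.5 per vehicle library to 34.9 to 102 per nutlin library, with an LFC of 0.68 ± 0.25 (edgeR quasi-likelihood test, adjusted p = 0.0277). The main transcript had an LFC of 4.08 ± 0.14, and its share went from 57.6% to 74.6%. The change of ENST00000451436 relative to the gene was -2.11 as a natural logarithm, not log2 (edgeR diffSpliceDGE, adjusted p = 5.52e-05). The rise of EDA2R was thus carried by its other transcripts, as far as kallisto could assign reads shared between them.

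In ZMAT3 the main transcript ENST00000311417 went from 94.7% to 86.3% of the counts. ENST00000432729 rose from 4.79% ± 2.47 to 11.9% ± 2.22 (SD, n = 10), with its own LFC at 4.07 ± 0.25 (SE) against 2.66 ± 0.09 for the main transcript. Its change relative to the gene was 0.89 as a natural logarithm (edgeR diffSpliceDGE, adjusted p = 1.26e-05). ENST00000414084, at 0.526% and 1.83% of the counts, also gained (adjusted p = 0.0126 in the same test). In AEN the main transcript ENST00000332810 held 89.6% and 88.4%. The AEN transcripts that gained were ENST00000558327 and ENST00000560174, both annotated as retained introns, and the coding ENST00000559528, none above 1.71% of the counts in either group (adjusted p = 0.0184, 0.0103 and 0.0107 in the same test). No shift was called in PHLDA3, SPATA18 or TRIAP1. In PHLDA3, ENST00000485436 had an adjusted p of 0.0509 in that test. In SPATA18 only 2 of 10 transcripts could be tested, and ENST00000511028, a retained intron transcript that was not tested, had 12.3 to 34.3 estimated counts in nutlin and at most 0.0039 in vehicle libraries.

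**Figure D4:**
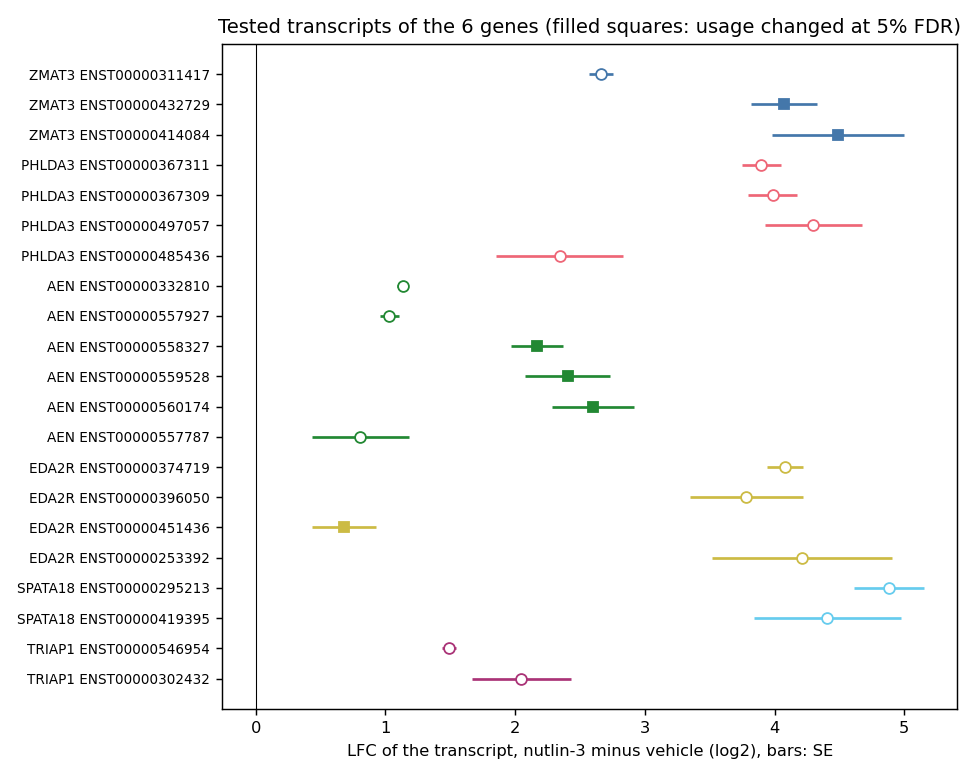
LFC of the 21 tested transcripts of the 6 genes (nutlin-3 minus vehicle, log2) with SE, where filled squares mark the 6 whose usage within the gene changed at 5% FDR. ENST00000451436 of EDA2R, at 0.68, lies left of the other EDA2R transcripts, which lie between 3.78 and 4.21.

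Genes that work with or resemble the 6 changed in both directions. Of 37 such genes 27 were SDE, 9 higher and 18 lower with nutlin-3. Of all genes tested 58.8% were SDE, with 32.3% SDE and higher and 26.5% SDE and lower. The median LFC of the 37 was -0.12, against 0.19 for all genes tested and -0.08 for the 15168 genes of at least 1 CPM. Without the 6 libraries that stood apart, 22 of the 37 were SDE. Among the relatives and partners of ZMAT3, ZMAT1 (LFC 2.51 ± 0.20), ZMAT4 (1.07 ± 0.08) and CD44 (1.69 ± 0.10), a cell adhesion gene whose splicing ZMAT3 regulates, rose. ZMAT2 (-0.30 ± 0.04), ZMAT5 (-0.24 ± 0.06) and ELAVL1 (-0.55 ± 0.04), which encodes the AU-rich element binding protein HuR, fell.

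The PHLDA3 list holds its family and the kinases it opposes. PHLDA1 rose from a mean of 7.77 to 16.6 CPM with overlapping groups, and PHLDA2 rose at 0.0535 to 0.193 CPM, close to the limit of detection. The kinase genes AKT1 (LFC -0.38 ± 0.04) and AKT2 (-0.24 ± 0.03) fell, while PDPK1, which encodes the kinase that activates AKT, rose by 0.19 ± 0.04. The fall of AKT2 was not SDE when effective transcript lengths were included (highest adjusted p over all alternatives 0.250).

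For EDA2R, only the ligand gene EDA was SDE of 6, and it rose from 0.121 to 0.359 CPM (LFC 1.53 ± 0.42). The sister receptor gene EDAR (LFC -0.49 ± 0.35), its adaptor EDARADD (1.03 ± 0.69), the signaling genes TRAF3 (-0.15 ± 0.14) and TRAF6 (0.04 ± 0.06), and NFKBIA (-0.003 ± 0.05), an inhibitor and target of NF-κB, were not SDE. EDAR and EDARADD averaged below 0.32 CPM in both groups, where this depth gives wide intervals. Among exonucleases related to AEN, ISG20 rose (1.07 ± 0.10, and up to 3.21 in the alternatives), TREX1 fell (-0.36 ± 0.11) and REXO4 was not SDE (0.04 ± 0.04). ISG20L2 had an LFC of -0.12 ± 0.03, which was SDE but turned to 0.01 with protein-coding transcripts only.

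At the mitochondrion several partners fell while the members rose. In the list of SPATA18, mitophagy receptors BNIP3 (LFC -0.62 ± 0.05), BNIP3L (-0.33 ± 0.06) and FUNDC1 (-0.76 ± 0.07) fell, as did UACA (-0.62 ± 0.23), which encodes a binding partner of the SPATA18 protein. The mitochondrial kinase gene PINK1 was not SDE (-0.07 ± 0.06). None of the 8 genes listed with TRIAP1 was SDE and higher. PRELID1, whose product forms the lipid transfer complex with TRIAP1, fell from 186 ± 17.0 to 84.5 ± 5.92 CPM (SD, n = 10), with an LFC of -1.14 ± 0.05 and no overlap between groups. PRELID3B (-0.34 ± 0.04), PTPMT1 (-0.58 ± 0.06) and CRLS1 (-0.41 ± 0.04), of which the last pair encodes enzymes of cardiolipin synthesis, also fell. PGS1 had an LFC of -0.11 ± 0.04, which was SDE but turned to 0.18 with protein-coding transcripts only. PRELID2, PRELID3A and TAFAZZIN were not SDE, with LFCs of 0.95 ± 0.55, 0.003 ± 0.06 and -0.07 ± 0.07. ZMAT1, ZMAT5, PHLDA2, TREX1, BNIP3L and UACA were likewise not SDE under at least 1 alternative, and 16 of the 27 stayed SDE in the same direction under every alternative run.

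**Figure D5:**
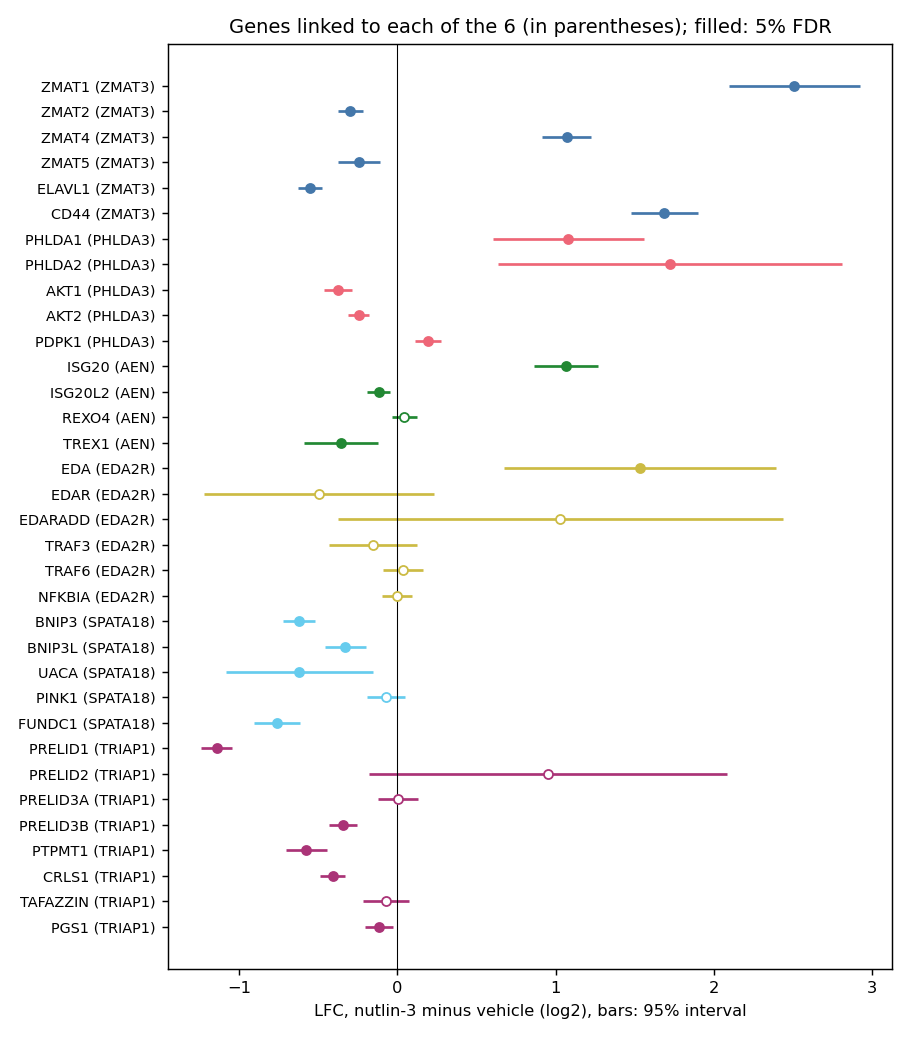
LFC (nutlin-3 minus vehicle, log2) with its 95% confidence interval for 34 of the 37 genes linked to the 6, each with the linked member in parentheses, where filled circles are SDE at 5% FDR. The TRIAP1 list lies at or below 0 apart from PRELID2 and PRELID3A, which were not SDE, and PRELID1 is the lowest at -1.14.

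The chromosomal surroundings gave no uniform picture. Of 13 tested genes that overlap a member or start within 50 kb of its start, 8 rose, 4 fell and 1 was not SDE, with a median LFC of 0.57, where 32.3% of all genes tested were SDE and higher and 26.5% SDE and lower. Within 100 kb rises and falls were close in number, with 10 genes higher and 9 lower of 24 tested and a median LFC of 0.13. No other tested gene overlapped ZMAT3 or EDA2R or started within 50 kb of their starts. Near PHLDA3, TNNI1 (LFC 2.18 ± 0.35), CSRP1 (0.59 ± 0.22) and CSRP1-AS1 (1.28 ± 0.21) rose, all below 1 CPM on average, and CSRP1 was not SDE under 4 alternatives, with an LFC down to 0.06. Near AEN, ISG20 starts 14333 bases away and rose from 3.68 ± 0.694 to 7.68 ± 0.949 CPM (SD, n = 10). In TPM it rose from 1.95 to 17.5, and its LFC ranged from 1.04 to 3.21 over the alternatives. LINC01586 rose with an LFC of 0.47 ± 0.17 that turned to as low as -0.39 in the length-corrected alternatives. Near SPATA18, LRRC66 rose from 0.824 ± 0.218 to 5.24 ± 1.04 CPM (SD, n = 10) without overlap (LFC 2.65 ± 0.15), and SGCB, which starts 13005 bases away, had an LFC of -0.13 ± 0.04 that was SDE here but not under 5 alternatives.

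TRIAP1 is the densest neighborhood, with 6 tested genes. GATC, which encodes a subunit of a mitochondrial amidotransferase, starts 60 bases from TRIAP1 on the opposite strand and had an LFC of 0.23 ± 0.04, against 1.43 ± 0.05 for TRIAP1. COX6A1 (-0.40 ± 0.07), SRSF9 (-0.88 ± 0.04) and DYNLL1 (-1.02 ± 0.06) fell, and the lncRNA NRAV (1.08 ± 0.07) rose. ENSG00000111780, a readthrough locus that overlaps TRIAP1 on the opposite strand, had 0.142 and 0.218 CPM and was not SDE. The strand setting of the quantification is not given in the sources used here, but counts of that locus are small beside those of TRIAP1.

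For each member, the 3 genes with the closest profile over the 20 samples were found among 15167 candidates. Candidates had a mean of at least 1 CPM over the 20 samples. The measure was the root mean square (RMS) difference of log2(CPM + 1), each gene centred on its vehicle mean. SPATA18 and PHLDA3 were among the closest to each other (RMS 0.184), and INKA2 was closest to both, at 0.143 for SPATA18 and 0.184 for PHLDA3. PGF (0.223) followed for PHLDA3 and GPC1 (0.188) for SPATA18. Closest to EDA2R were MIR34AHG, the host gene of the p53-regulated microRNA miR-34a (0.0926), FOSL1 (0.128) and CSF1 (0.156). Among the closest to ZMAT3 were the lncRNA ENSG00000290907 (0.136) and ANKRD18A (0.158). AEN was nearest to TSPAN11 (0.0644), VAV2 (0.0673) and JUNB (0.0787), and TRIAP1 to LINC00663 (0.107), BLOC1S2 (0.107) and TUBB6 (0.116). Because 1 is added, the measure understates the change of genes near or under 1 CPM in vehicle samples, such as SPATA18 (mean 0.889 CPM, LFC 4.74) and FOSL1 (mean 0.474 CPM, LFC 5.08). SPATA18 and FOSL1 reached the limit of 1 CPM only through their nutlin samples. A small RMS of these genes is therefore no sign of an equal fold change.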

How the data were processed

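The files hold, per transcript, estimated counts, TPM and effective length. The authors made these with kallisto 0.42.4, which assigns reads to transcripts without base-level alignment, against Ensembl release 85 on GRCh38. The deposited estimated counts are not normalized, the deposited TPM are scaled for effective length and to the same total in every sample, and reads shared by transcripts are split by the model. Transcripts were matched to GENCODE release 44 (96.049% of 198968 transcripts, and 95.708% to 96.782% of the counts, with 7862 transcripts unmatched), and estimated counts were summed per mRNA or lncRNA gene and rounded. Genes with a total of 1 count or more in the vehicle samples and also in the nutlin samples were tested with edgeR 4.0.16 (R 4.3.3, glmQLFit and glmQLFTest with TMM and condition as the only term, all 20 samples), with Benjamini-Hochberg adjustment at 5% FDR. Transcripts also passed filterByExpr and were tested with the same fit and with diffSpliceDGE. TMM factors were 0.879 to 0.973 in vehicle and 1.01 to 1.10 in nutlin samples. The study describes the samples as biological replicates, and p-values measure the spread between them. The code was tested on simulated data.

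The members and gene lists were chosen with earlier results of these data known. The genes named were the 6 members, of the other p53 targets the 3 with the highest and the 3 with the lowest LFC and any that fell, all genes linked to a member, the SDE neighbors within 50 kb and the 3 closest profiles of each member. BBC3 and ENSG00000111780 are named in addition, and a few genes and 1 sequence covered by these rules are not reported here. Alternatives were median-of-ratios factors, DESeq2 1.42.0, limma 3.58.1 (voom, and log2(TPM + 1)), other filters, effective length offsets, protein-coding transcripts only, a replicate block and a 1% FDR.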

Additional observations from a re-analysis of the deposited data

Results flagged for a closer look

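TRIAP1 had 44.5 CPM in vehicle replicate 10, and the next vehicle sample had 37.5 CPM. The gap was 0.535 of the range of the group, above the 95% critical value of Dixon's test for 10 samples. The 6 genes in both conditions make 12 groups, of which chance would mark about 1 in 20. Replicate 10 also had the highest vehicle level of TRIAP1 per length, 40.6 TPM, but replicate 3 was close at 39.4 TPM. In estimated counts replicate 10 had 647 and replicate 12 had 608. The TMM factor of replicate 10 was the lowest of all libraries, 0.879, which raises its CPM relative to the other vehicle samples. The part of that factor in the value was not tested.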

How the results depend on the processing

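All 6 genes stayed SDE and higher in nutlin samples under each of the 13 alternatives. LFCs ranged from 2.63 to 3.07 for ZMAT3, 3.62 to 3.999 for PHLDA3, 1.06 to 1.23 for AEN, 3.40 to 3.80 for EDA2R, 2.98 to 4.89 for SPATA18 and 1.38 to 1.58 for TRIAP1. The lowest value of SPATA18 came from log2(TPM + 1), a scale that understates the change of low genes. The SE of its LFC was 0.12 in the main fit, 0.15 with DESeq2 and 0.20 with limma voom. Of 153 alternative values 150 kept their direction and their side of the threshold or stayed within 1.5 times the main count. The others were the neighboring genes that were SDE, 7 with protein-coding transcripts only (which leaves fewer genes to test) and 19 with starts within 100 kb, against 12, and the transcripts with changed usage, 2 at 1% FDR against 6. Vehicle and nutlin samples share 8 replicate numbers, and the labels do not say what a number marks. Deviations of same-numbered samples from their group means correlated at -0.0778 to 0.0951, none of 8 above 0.1, and none correlated best with its own number. In a fit of these 16 samples with a replicate block, all 6 genes were SDE, and 14276 genes were SDE in all, against 14992 in the same samples without it. Usage was then called for 4 transcripts, without ENST00000559528 and ENST00000560174 of AEN (edgeR diffSpliceDGE, adjusted p = 0.0534 and 0.104). For low genes such as SPATA18 in vehicle samples, EDAR, EDARADD, PHLDA2 and PRELID2, the depth limits the precision.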
